A study of Mus musculus with 20 samples.

Results

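ATAC-seq peaks were examined at 33 genes for transcription factors of the developing nervous system, among them Olig3 and Foxb1, out of 21938 protein-coding genes in the mouse annotation. ATAC-seq marks accessible DNA by the cuts of Tn5 transposase. The genes were chosen with peaks of these same libraries in view: Olig3 and Foxb1 had been selected on promoter peaks seen late in the NanogN70 path described below, and the other members are related regulators. Counts of promoter peaks over the set are therefore a description, and no test was made on them. All 33 genes were found in the annotation, and none was left out for a low value.

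The 20 libraries came from mouse embryonic fibroblasts (MEFs, 1 library), embryonic stem cells (ESCs, 3 libraries) and MEFs transduced with retroviruses for Oct4 and either native Nanog (Nanog path) or NanogN70 (NanogN70 path), with 1 library per path on each of 8 days, which were 0, 1, 3 and 5, then 7 and 8, and last 10 and 12. NanogN70, which the study calls NanogBiD, is NANOG with the N-terminal part of SS18 fused to its N-terminus. SS18 is a subunit of the BAF chromatin remodelling complex, and this part of it contacts the BRG1 ATPase. The MEFs came from mid-gestation embryos that carried the OG2 reporter, in which Oct4 regulatory DNA drives GFP, and the ESCs came from OG2 embryos too, so all groups share that transgene. Day 0 followed 2 rounds of infection. The medium was changed from iCD3 to the ESC medium with 2i and LIF after day 7, so the latest days and the change of medium cannot be told apart. The sample titles of the ESC libraries say ESC while their source field says MEF, and the titles were used.

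Factors of this kind are arranged in a hierarchy in the embryonic neural tube. Homeodomain and paired box factors such as PAX6, PAX7, DBX1, NKX2-2 and IRX3 divide the tube into dorsoventral progenitor domains, LHX2, EMX2, OTX1, GBX2 and EN1 mark territories along its length, and proneural basic helix-loop-helix (bHLH) factors then commit cells to neuronal fates. Their promoters are often rich in CpG dinucleotides and, in pluripotent cells, are commonly held silent by Polycomb proteins. An accessible promoter is thus not the same as a transcribed gene, and no RNA was analysed here.

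A gene was said to have a promoter peak in a library when a MACS peak overlapped the 2 kb on either side of any of its annotated start sites by at least 1 bp. The score of a peak is the scaled negative logarithm of its p-value by MACS, with a lowest value of 50 in these files, and the pileup is the number of tags at its summit. The number of reads per library is unknown. Libraries held 44126 to 125467 peaks, and the median pileup over the 14217 regions that all 20 libraries shared was 16 to 60. In NanogN70 on day 3, where that median was highest, all 15 promoters of a T lymphocyte and leukocyte list had a peak, against 2 to 5 in the other time course libraries. That library is counted below with and without its day. The 10 fibroblast markers all had a promoter peak in MEFs and the 10 pluripotency markers all had one in each ESC library. These lists overlap between cell types, since 8 of the fibroblast promoters also had a peak in each ESC library and 5 of the pluripotency promoters had one in MEFs. In these bulk samples, a peak in few cells and a weak peak in many cells cannot be told apart.

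With all peaks, most promoters of the neural factors had one in MEFs and ESCs and many lacked one at the start of both paths. By day 12 most had one. The level in MEFs and ESCs depended on the number of peaks kept, as given below. In MEFs 26 of the 33 genes had a promoter peak (78.8%, against 70.3% of all protein-coding genes). In the ESC libraries 30, 32 and 31 genes had one (31 ± 1, SD, n = 3), while the shares of all genes were 72.3%, 72.8% and 71.1%. In the Nanog path the number was 13 on day 0, 14 on day 1, 17 on day 3, 22 on day 5, 25 on day 7, 22 on day 8, 23 on day 10 and 28 on day 12. Over the same days the share of all genes hardly moved, with 61.1%, 61.9%, 63.5%, 66.4%, 67.6%, 66.9%, 63.4% and 63.6%. In the NanogN70 path the number of neural factor genes was 17, 15, 20, 22, 27, 24, 30 and 30 from day 0 to day 12, beside 65.5%, 61.9%, 67.4%, 66.2%, 68.4%, 64.6%, 63.7% and 65.9% of all genes. On days 0 and 1 of both paths the set was thus below the share of all genes, and on day 12 it was above it.

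**Figure D1:**
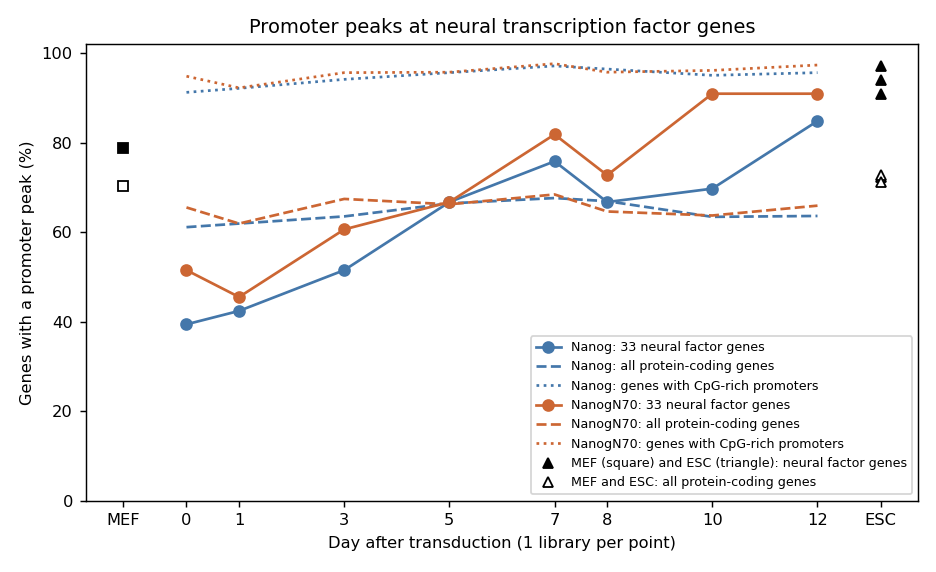
Share of genes with a promoter peak (y axis, percent) by day after transduction (x axis), with MEFs at the left and the 3 ESC libraries at the right. Solid lines are the 33 neural factor genes, dashed lines all protein-coding genes and dotted lines genes with CpG-rich promoters; each point is 1 library, without replicates in the time course. The solid lines run from 39.4% and 51.5% on day 0 to 84.8% and 90.9% on day 12, while the dashed lines stay between 61.1% and 68.4%.

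Promoters gained between day 0 and day 12 made up most of this pattern. With Nanog, 15 of the 33 genes (45.5%) had a promoter peak on day 12 and not on day 0, against 5.6% of all genes, and no member had the reverse, against 3.17%. With NanogN70, 13 genes (39.4%) had a peak on day 12 alone of these 2 days, against 4.35% of all genes, and again no member had the reverse, against 3.97%. The genes with a peak in MEFs and none on day 0 numbered 13 with Nanog (background 9.67%) and 10 with NanogN70 (background 6.09%). Of the 33 promoters 22 were CpG-rich, against 36.6% of all genes. In the Nanog path 11 of these 22 had a peak on day 0 and 21 on day 12, while CpG-rich promoters of all genes were at 91.2% and 95.6%.

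The median pileup at the shared regions was 16, 16, 23, 28, 38, 32, 23 and 24 tags from day 0 to day 12 with Nanog, and 24, 16, 60, 23, 38, 26, 28 and 41 tags with NanogN70. With Nanog these values and the counts of members were both lowest on days 0 and 1 and both highest up to day 8 on day 7, while on days 10 and 12 the counts were 23 and 28 at 23 and 24 tags. The highest value with NanogN70, on day 3, went with 20 genes. The number of peaks in the library moved with the counts between some days and against them between others. It was 60077 on day 3 and 91745 on day 5 in the Nanog path, where 17 and 22 members had a peak. In the NanogN70 path it was 107038 on day 0 and 44126 on day 10, where 17 and 30 members had one. The part of pileup and peak number in the counts was not tested. When each library was cut to its 44126 best-scoring peaks, the Nanog path had 8 members on day 0 (56.0% of all genes) and 28 on day 12 (62.6%), and the NanogN70 path had 9 (56.0%) and 30 (64.1%). MEFs then had 11 members (33.3%, against 59.8% of all genes), and 20 had a peak in at least 2 ESC libraries (60.6%, against 63.8%). The set was thus below all genes in MEFs and ESCs, whereas with all peaks it was above them. The distance between MEFs and day 0 was thus smaller than with all peaks, and that between day 0 and day 12 was larger.

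Peaks beyond the promoters had a similar course. In a wider window of the gene and 10 kb on either side, which includes the promoter, 31 of the 33 genes had a peak in MEFs (82.4% of all genes did), and 17 in the Nanog path on day 0 (76.1%). The NanogN70 path had 24 at that time (80.1%). By day 12 there were 29 in the Nanog library (74.5%) and 31 in the NanogN70 library (76.2%). Outside the promoter windows, the mean number of peaks per member in the rest of this window was 0.394 on day 0 and 2.03 on day 12 in the Nanog path. In the NanogN70 path it was 0.818 and 2.33. Over all genes the corresponding means were 1.96 and 1.34 in the Nanog path, and 3.1 and 1.52 in the NanogN70 path, so the set had more of these peaks on day 12 and the average gene had fewer.

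**Figure D2:**
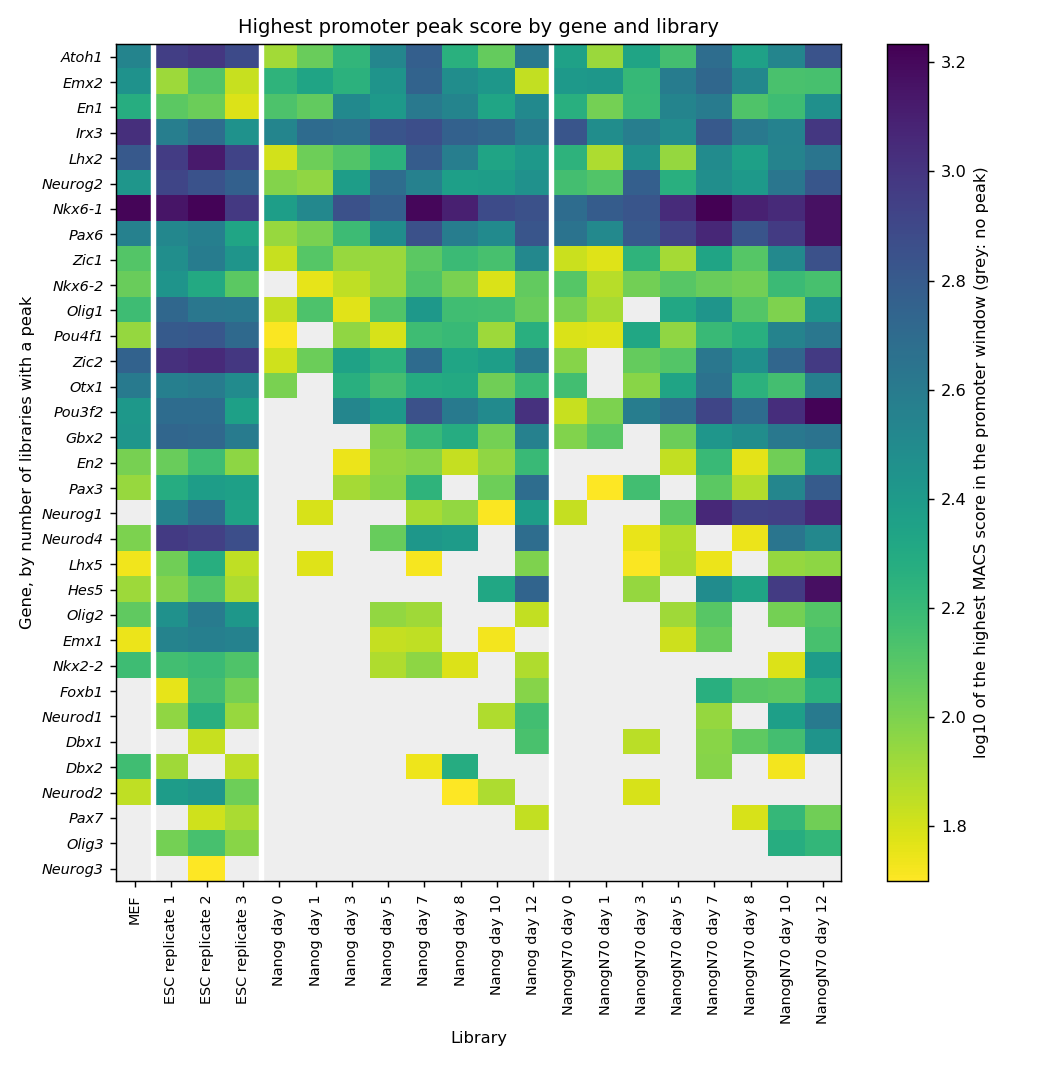
Highest MACS score in the promoter window (colour, log10 scale, grey for no peak) for the 33 genes (rows, ordered by the number of libraries with a peak) in the 20 libraries (columns; white lines separate MEFs, ESCs, the Nanog path and the NanogN70 path). The 9 uppermost genes have a peak in all 20 libraries, and the grey field in the lower part covers mostly days 0 to 5 of both paths.

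The genes fell into classes by these peaks. In all, 26 had a promoter peak in MEFs and in at least 2 ESC libraries (78.8%), against 66.7% of all genes. A further 5 had one in at least 2 ESC libraries and not in MEFs (Olig3, Foxb1, Neurog1, Neurod1 and Pax7; 15.2%, background 5.45%), and 2 were in neither class (Neurog3 and Dbx1, each with a peak in 1 ESC library; 6.06%, background 24.3%). No member had one in MEFs and in fewer than 2 ESC libraries, against 3.62% of all genes. The 9 genes with a peak in every library (27.3%, against 53.8% of all genes) were Pax6, En1, Lhx2, Emx2, Neurog2, Atoh1, Nkx6-1, Irx3 and Zic1. Counted back from day 12, a promoter peak was present without interruption from day 7 or later in 11 genes with Nanog (Neurog1 from day 7; Neurod1, Hes5 and Pax3 from day 10; Olig2, Foxb1, Neurod4, Pax7, Nkx2-2, Dbx1 and Lhx5 from day 12). In the NanogN70 path it was present from day 7 in Foxb1, Hes5, Pax3 and Dbx1, from day 8 in Neurod4 and Pax7, from day 10 in Olig2, Olig3, Neurod1, Nkx2-2 and Lhx5, and from day 12 in Emx1. Over all 33 members the uninterrupted run started earlier with NanogN70 in 15, against 7.79% of all genes, and later in 3 (Olig1, En2 and Zic2), against 4.05%. Without day 3 these numbers were 16 (background 7.65%) and 1 (Zic2; background 3.83%). A run present in the NanogN70 path alone, as at Olig3 and Emx1, was counted as earlier.

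Among the Olig bHLH factors, OLIG3 specifies dorsal progenitors and OLIG1 and OLIG2 act in motor neuron and oligodendrocyte progenitors. Olig3 (ENSMUSG00000045591.6, chr10:19356533-19358604, plus strand) had no promoter peak in MEFs or in any Nanog library. In the NanogN70 path its promoter had a peak on day 10 (score 190.0, pileup 12) and on day 12 (score 164, pileup 10), with summits 264 and 213 bp before the start. The highest ESC peaks had scores of 105, 140 and 93.6 with pileups of 9, 12 and 9, and their summits lay 689, 667 and 652 bp after the start. ESC replicates 1 and 2 had in addition a weaker peak 279 and 335 bp before the start, with scores of 94.0 and 75. The peak of the NanogN70 path was thus at the upstream of these sites, and in neither NanogN70 library was there one at the downstream site. Its pileups are 0.429 and 0.244 of the median of the shared regions, against 0.281, 0.316 and 0.31 in ESCs, so the peaks rest on few tags in every library. The sequence around the day 10 summit (GRCm38 chr10:19356194-19356344, plus strand, read from RefSeq's assembly of the build that UCSC names mm10) holds a SOX-type hexamer, shown in capitals, and is printed because it is the only site of the Olig3 promoter with a peak in a time course library. It touches no annotated exon.
Olig3 promoter: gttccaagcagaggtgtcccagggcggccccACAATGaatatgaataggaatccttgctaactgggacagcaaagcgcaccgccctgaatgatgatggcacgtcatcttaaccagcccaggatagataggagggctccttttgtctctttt

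Olig3 also had a site about 3.4 kb before its start, with scores of 194, 150 and 127 in ESCs, of 151 in NanogN70 on day 3 and, somewhat farther upstream, of 50.7 in NanogN70 on day 12. Olig2 had a peak in MEFs (score 118), in ESCs (scores 287, 393 and 265), on days 5, 7 and 12 with Nanog (88.7, 83.0 and 69.3) and on days 5, 7, 10 and 12 with NanogN70 (82.2, 125, 105 and 129.5). Olig1, its neighbour on chromosome 16, had a peak on all 8 days with Nanog and on every day except day 3 with NanogN70. The 3 Olig genes thus ran from a gene with a peak at nearly all times to one with a peak in ESCs and on 2 late days.

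FOXB1 is a forkhead factor of the hypothalamus, midbrain and spinal cord. Foxb1 (ENSMUSG00000059246.4, chr9:69757710-69760940, minus strand) had no promoter peak in MEFs, where the nearest peak lay 2244 bp after its start. With NanogN70 its promoter had a peak on days 7, 8, 10 and 12, with scores of 184, 126, 122 and 177 and pileups of 9, 8, 11 and 18. In the Nanog path its only peak was that of day 12 (score 94.5, pileup 10). The ESC scores were 57.3, 144 and 105. Relative to the median of the shared regions, the day 12 pileups were 0.439 with NanogN70 and 0.417 with Nanog, so on day 12 the paths were alike in this measure and differed in the days before. The window also holds the start of the long non-coding gene B230323A14Rik, so the peak cannot be assigned to Foxb1 alone.

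The higher scores at Foxb1 lay outside the promoter. A region 5.5 kb upstream, in an intron of B230323A14Rik, had no peak in MEFs, in any ESC library or before day 10. Its score was 223 on day 10 and 622 on day 12 with NanogN70 (pileups 13 and 30), and 194 on day 12 with Nanog (pileup 11). A pair of neighbouring regions 6.1 and 6.4 kb after the start, beyond the 3' end, had scores of 52.6 and 63.2 on day 10 and of 191 and 325 on day 12 with NanogN70, and no peak in any other library. The sequence around the upstream summit is shown since this is the strongest peak near the gene and is absent from MEFs and ESCs (GRCm38 chr9:69766356-69766506, minus strand; capitals mark a SOX-type hexamer).
Foxb1 upstream region: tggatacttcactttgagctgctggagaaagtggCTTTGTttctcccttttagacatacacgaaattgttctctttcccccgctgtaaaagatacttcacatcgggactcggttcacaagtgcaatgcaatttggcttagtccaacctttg

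HES5 is a bHLH repressor that Notch signalling switches on in neural progenitors, where it holds back the proneural factors. Hes5 (ENSMUSG00000048001.7, chr4:154960923-154962371, plus strand) had a weak promoter peak in MEFs (score 83.6, pileup 12) and in ESCs (scores 96.9, 130.2 and 76.9; pileups 12, 11 and 9). In the Nanog path it had a peak on day 10 (score 208, pileup 14) and on day 12 (score 545, pileup 32). In the NanogN70 path it had one on day 3 (87.4, pileup 16) and then on days 7, 8, 10 and 12, with scores of 306, 219, 922 and 1476 and pileups of 29, 21, 47 and 87. Scaled to the median of the shared regions, the pileup was 2.12 on day 12 with NanogN70 and 1.33 with Nanog, against 0.308 in MEFs and 0.289 to 0.375 in ESCs. The late libraries of both paths were thus above MEFs and ESCs at this promoter by score and by scaled pileup.

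The position of the signal at Hes5 differed as well. Measured from the nearest annotated start, the highest summits lay 488 bp downstream in MEFs and 505, 487 and 290 bp downstream in ESCs, and 172 to 253 bp upstream on day 10 with Nanog and on days 7 to 12 with NanogN70. The Nanog day 12 summit lay 15 bp upstream. ESCs had a weaker second peak near the start, with scores of 85.5, 52.2 and 58.4. Farther upstream, a site about 8.1 kb from the start had scores of 73.4 and 446 on days 10 and 12 with Nanog and of 76.3, 603 and 673 on days 7, 10 and 12 with NanogN70. ESC replicate 3 had a peak at 7.7 kb with a score of 77.9. Another site 3.1 kb after the start had a peak in every library, with a score of 918 in MEFs, so the neighbourhood was not closed as a whole in the libraries that lacked the promoter peak. The sequence around the NanogN70 day 12 summit (GRCm38 chr4:154960676-154960826, plus strand) is shown because it is the site with the highest day 12 score among the members' promoters that lacked a day 0 peak in the NanogN70 path. Capitals mark 3 SOX-type hexamers and a NANOG-type hexamer. It overlaps an exon of the non-coding gene Gm20421 and no coding exon.
Hes5 promoter: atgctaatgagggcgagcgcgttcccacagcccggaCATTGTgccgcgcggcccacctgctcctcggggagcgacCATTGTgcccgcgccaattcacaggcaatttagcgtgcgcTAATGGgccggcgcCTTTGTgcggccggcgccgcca

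The proneural bHLH factors had 2 to 5 of 7 promoters with a peak over the Nanog path and 2 to 5 over the NanogN70 path, against 4 in MEFs and 6 to 7 in ESCs. NEUROG1 starts sensory and dorsal neurogenesis. Neurog1 (ENSMUSG00000048904.5) had no promoter peak in MEFs and ESC scores of 351, 478 and 223. With NanogN70 it had scores of 67.8 on day 0 and 121 on day 5, and then of 1133, 856, 871 and 1158 on days 7, 8, 10 and 12 (pileups 31, 28, 30 and 39). With Nanog its scores were 62.0 on day 1 and 79.0, 88.8, 51.2 and 241 on days 7, 8, 10 and 12 (pileups 7, 7, 5 and 9). Scaled to the shared regions these late pileups were 0.816 to 1.08 with NanogN70 and 0.184 to 0.375 with Nanog, without overlap, and 0.421 to 0.448 in ESCs. The count of days, 6 against 5, hid this difference.

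Neurod1, which acts in neuronal and endocrine differentiation, had no promoter peak in MEFs and scores of 75.9 and 146 on days 10 and 12 with Nanog. With NanogN70 its scores were 87.3 on day 7, 232 on day 10 and 403 on day 12, beside 89.7, 183 and 86.0 in ESCs. Neurod4, a factor of newborn neurons, had ESC scores of 942, 874 and 728 with summits within 6 bp of the start. On day 12 with Nanog (score 481) and on days 10 and 12 with NanogN70 (scores 436 and 331), its highest summit lay about 2 kb upstream instead, in a region with no peak in MEFs and ESCs. Neurod2, a factor of later neurons, and Dbx2 were the genes with a peak in MEFs and none on day 12 of either path. Neurod2 had scores of 69.9 in MEFs and 243, 267 and 109 in ESCs, of 50.3 and 77.3 on days 8 and 10 with Nanog, and of 61.6 on day 3 with NanogN70. Except on day 8 with Nanog, the summits of these peaks lay 2059 to 2106 bp after the start. They were thus just beyond the 2 kb window, and only the edges of the peaks reached into it. Neurog3, an endocrine and neural factor, had a single promoter peak in the 20 libraries, at a score of 50.5 in ESC replicate 2. Atoh1 and Neurog2 had a peak throughout.

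The paired box genes had late peaks far from their starts. PAX6 directs eye, forebrain and ventral spinal progenitors, and PAX3 and PAX7 mark the dorsal tube and neural crest. The Pax6 promoter had a peak in all 20 libraries, but a region 21.1 kb after its 5' end, in an intron and reaching to within 2 kb of an alternative start, had none in MEFs, ESCs or on days 0 to 8 of either path. Its scores were 222 and 499.8 on days 10 and 12 with Nanog (pileups 14 and 23) and 653 and 1453 with NanogN70 (pileups 23 and 52). Pax3 had 4 regions without a peak in MEFs and ESCs, 57.6, 29.4 and 6.3 kb after and 1.1 kb before the 5' end. Those at 57.6 and 29.4 kb already had a weak peak on day 8 with NanogN70 (scores 54.7 and 58.0, pileup 5 at each), and the other 2 had none before day 10 in either path. The day 12 scores of these regions were 455, 424, 357 and 282 with Nanog and 1175, 1105, 804 and 617 with NanogN70. At the Pax3 promoter window the highest scores were 85.7 in MEFs, 191 to 239.8 in ESCs and 484 on day 12 with Nanog. Their summits lay at most 122 bp from the nearest start. On day 12 with NanogN70 the highest peak in the window was that of the region 1.1 kb upstream (617), a different site.

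Pax7 (ENSMUSG00000028736.13) had no promoter peak in MEFs and in ESC replicate 1. It had a score of 68.8 on day 12 with Nanog and of 62.2, 162 and 108 on days 8, 10 and 12 with NanogN70, and scores of 64.2 and 78.2 in ESC replicates 2 and 3. Within the gene, 5 regions between 15.3 and 32.6 kb after the 5' end had late peaks without a peak in MEFs or ESCs. The highest had day 12 scores of 502 and 492 with NanogN70, and of 211 and 139.8 with Nanog. The sequences around the Pax6 summit (GRCm38 chr2:105689955-105690105, plus strand) and the highest Pax3 summit (chr1:78139494-78139644, minus strand) are given as the strongest regions of the whole set that had no peak in MEFs and ESCs. Both are intronic, touch no exon and hold a SOX-type hexamer, in capitals.
Pax6 intronic region: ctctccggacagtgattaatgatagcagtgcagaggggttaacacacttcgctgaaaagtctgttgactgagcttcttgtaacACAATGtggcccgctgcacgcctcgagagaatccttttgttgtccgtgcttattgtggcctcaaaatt
Pax3 intronic region: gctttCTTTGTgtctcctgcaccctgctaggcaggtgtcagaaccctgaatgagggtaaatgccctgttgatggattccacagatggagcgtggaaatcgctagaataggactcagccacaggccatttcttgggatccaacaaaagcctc

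Of the homeodomain factors that pattern the neural tube, Nkx6-1 and Irx3 had a peak in all libraries, and DBX1 and NKX2-2 stand for intermediate and ventral progenitors. Dbx1 (ENSMUSG00000030507.6) had no promoter peak in MEFs and 1 in ESCs (replicate 2, score 66.9). With NanogN70 it had peaks on days 3, 7, 8, 10 and 12, with scores of 72.1, 93.8, 119.9, 144 and 275, and with Nanog on day 12 alone (137). This difference in days, 5 against 1, was the largest among the members, and without day 3 it was 4 against 1, as at Foxb1. The summits lay 1513 to 1610 bp after the start in ESC replicate 2, on day 12 with Nanog and on days 8, 10 and 12 with NanogN70. Dbx2 had a promoter peak in MEFs (148), in ESC replicates 1 and 3 (83.3 and 71.4), on days 7 and 8 with Nanog (55 and 192) and on days 7 and 10 with NanogN70 (95.4 and 52.9). It also had an intronic region 16.4 kb after its 5' end with day 12 scores of 185 with Nanog and 698 with NanogN70. Nkx2-2 went the other way in its count of days, with peaks on days 5, 7, 8 and 12 with Nanog (76.0, 91.2, 60 and 76.0) and on days 10 and 12 with NanogN70 (60.3 and 243). Its late summits in both paths lay about 1.9 kb before the nearest start, in a region without a peak in MEFs and ESCs. Nkx6-2 had a promoter peak in every library but day 0 with Nanog. Its scores on the other days were 57.2 to 131.9 with Nanog and 73.0 to 153 with NanogN70, ranges that overlap, against 111.9 in MEFs and 122 to 275.0 in ESCs.

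**Figure D3:**
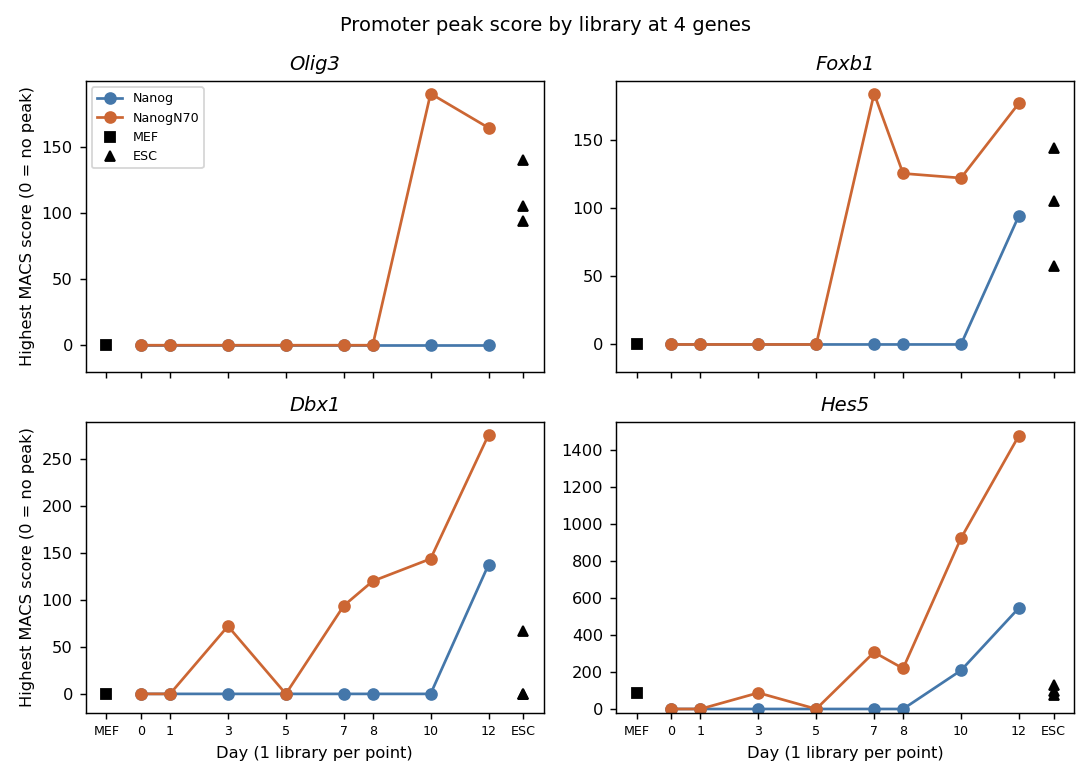
Highest MACS score in the promoter window (y axis, 0 for no peak) of Olig3, Foxb1, Dbx1 and Hes5 by day (x axis), with MEFs (square) and the 3 ESC libraries (triangles); each point is 1 library. With NanogN70 (orange) scores reach 190.0 at Olig3, 184 at Foxb1, 275 at Dbx1 and 1476 at Hes5, and with Nanog (blue) Olig3 has no peak on any day.

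Among the forebrain factors, Lhx2 and Emx2 had a peak throughout and Otx1 on 7 days of each path. Lhx5, a factor of the caudal forebrain, had weak peaks with scores of 52.8 to 99.6 with Nanog (3 days) and 51.1 to 91.2 with NanogN70 (5 days). Emx1, a cortical factor, had scores of 354, 374 and 355 in ESCs, 55.2 in MEFs and 53.4 to 139 in both paths, with a day 12 peak with NanogN70 alone. Of the factors of the midbrain and hindbrain, En1 had a peak throughout and En2 on 6 days with Nanog and 5 with NanogN70. Gbx2, which sets the boundary of midbrain and hindbrain, had a promoter peak on 5 days with Nanog and 7 with NanogN70, with day 12 scores of 363 and 448. A region 3.6 kb upstream of Gbx2 had day 12 scores of 132 with Nanog and 728 with NanogN70, and in the NanogN70 path also weak peaks on days 0 and 1 (70.5 and 76.0) and on days 7 and 8 (61.5 and 62.7).

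Zic1 and Zic2, zinc finger factors of the dorsal tube, had a peak on 8 days with Nanog, and on 8 and 7 days with NanogN70. The Zic1 score was 67.7 and 328 on days 0 and 12 with Nanog and 66.4 and 717 with NanogN70, while ESCs were at 270.7 to 390.2. Pou3f2 and Pou4f1 are POU factors of neuronal progenitors and sensory neurons. Pou3f2 had no peak on days 0 and 1 with Nanog and scores of 336 on day 3 and 1039.7 on day 12. With NanogN70 it had scores of 67.5 on day 0, 99.9 on day 1, 381 on day 3 and 1651 on day 12, the last the highest day 12 score among the promoters of this set. Its ESC scores were 488, 488 and 229.8, so on day 12 both paths were above all 3 ESC libraries. Both paths were above all 3 ESC libraries on day 7 too, with scores of 713 with Nanog and 820 with NanogN70. On days 8 and 10 with Nanog the scores were 404 and 318, below the higher ESC scores. With NanogN70 they were 489 and 1076 on these days, the first about level with the higher ESC scores. Scaled pileups were 1.75 with Nanog and 1.83 with NanogN70 on day 12, against a median of 0.793 in ESCs. The highest ESC value, in replicate 1, was well above that median and below both day 12 values. Pou4f1 had a promoter peak in every library but day 1 with Nanog. Between day 0 and day 12 its score went from 50.8 to 185.0 in the Nanog path and from 61.3 to 424 in the NanogN70 path, while MEFs were at 87.9 and ESCs at 509 to 653.9.

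The comparison of the paths asks whether the SS18 part alters the accessibility of these genes. On 7 of the 8 days more members had a promoter peak with NanogN70 than with Nanog, and on day 5 the numbers were equal. The share of all genes was higher with NanogN70 on days 0, 3, 7, 10 and 12, for example 65.5% against 61.1% on day 0. On day 1 it was 61.9% in both paths. On days 5 and 8 it was lower with NanogN70 (66.2% against 66.4%, and 64.6% against 66.9%). Over all days the members had a peak in 185 of 264 possible pairs of gene and library with NanogN70 and in 164 with Nanog. The mean difference was 2.62 genes per day. Without day 3 the numbers were 165 and 147 of 231. Each day has 1 library per path and the days are successive samples of a single time course, so no error of this difference can be given. Gene by gene, 15 members had a promoter peak on more days with NanogN70, against 11.8% of all genes, 5 on fewer days (Olig1, Neurod2, Nkx2-2, En2 and Zic2), against 6.55%, and 13 on equally many. Without day 3 the numbers were 14 with more days (background 9.86%) and 3 with fewer (background 6.81%), namely Neurod2, Nkx2-2 and Zic2. With equal numbers of peaks in each library 14 had more days and 8 had fewer, and no share of all genes is given for that setting. With all peaks, all genes also had more days with NanogN70 on balance, and a gene with a peak on every day of both paths cannot show a difference. Most differences were of 1 or 2 days. Those of 3 or more were at Foxb1, Hes5 and Dbx1. Without day 3 Foxb1 and Dbx1 each had 4 days against 1, and Hes5, whose day 3 peak was weak, had 4 against 2.

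A further pattern was noticed after the data were examined. Regions were made by merging overlapping peaks of the 20 libraries, which gave 335858, and a region was called late in a path if it had a peak on days 10 and 12 of that path and none in MEFs or in any ESC library. There were 2018 late regions with Nanog and 3837 with NanogN70. With NanogN70, 11 of the 33 genes had such a region in the gene or within 10 kb (33.3%; Foxb1, Neurod4, Pax3, Pax6, Pax7, Nkx2-2, Dbx2, Irx3, Lhx5, Gbx2 and Zic1), against 8.31% of all genes. With Nanog there were 3 (Pax3, Pax6 and Pax7), against 5.16%. The window grows with the gene. The median length of the members was 5.58 kb, against 17.4 kb over all genes, but Pax3 and Pax7 (95.9 and 96.5 kb), Dbx2 (32.4 kb) and Pax6 (28.5 kb) are long, and these 4 genes held 12 of the 22 regions of the NanogN70 path and all of those of the Nanog path. With the same window for every gene, 10 kb on either side of the 5' end, 9 members had a late region with NanogN70, against 2.41% of all genes, and 1 with Nanog, against 1.14%. Of the 22 late regions of the NanogN70 path near members, 12 lay inside the gene, 6 upstream and 4 downstream, and 5 reached into a promoter window. All except the region at Irx3 and the upstream region at Gbx2 were without a peak before day 7 in both paths.

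**Figure D4:**
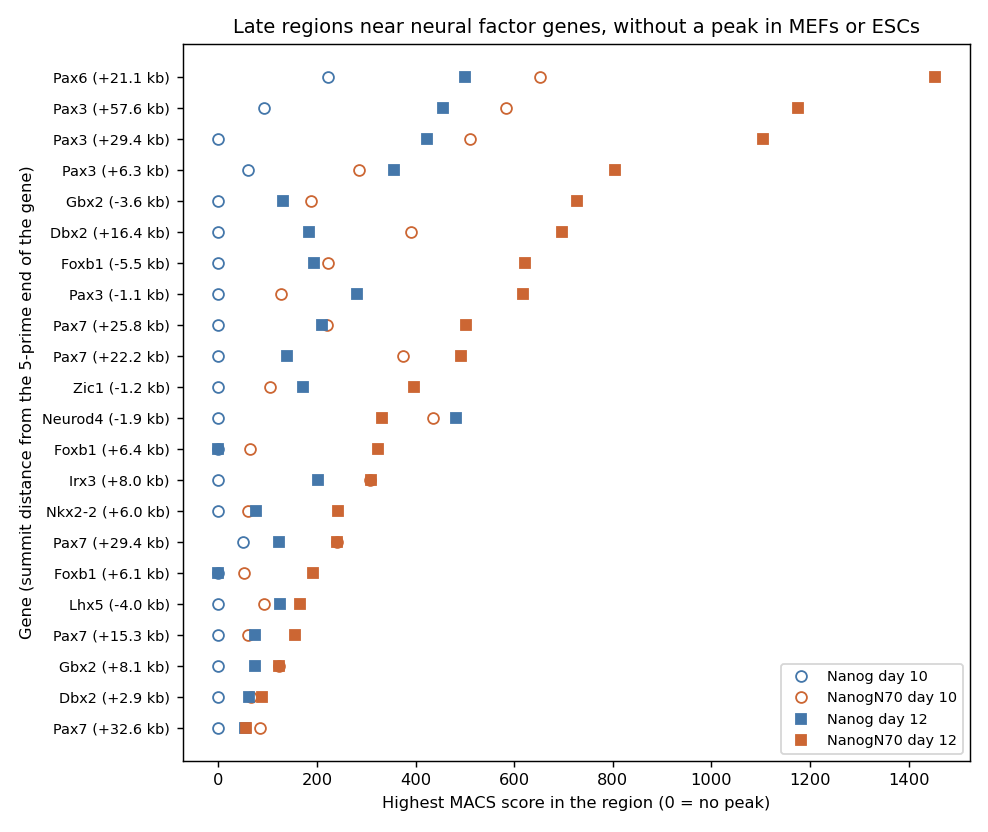
Highest MACS score (x axis, 0 for no peak) in the 22 late regions of the NanogN70 path near neural factor genes, on day 10 (open circles) and day 12 (filled squares) of the Nanog path (blue) and the NanogN70 path (orange). Rows give the gene and the distance of the highest summit from the 5' end of the gene; the orange squares run from 56.2 to 1453 and the blue squares from 0 to 499.8. The regions were chosen by their NanogN70 peaks on these days, which favours the orange symbols.

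These regions were not absent from the Nanog path. In the Nanog path 20 of the 22 had a day 12 peak, the exceptions being the 2 regions after Foxb1. Because the 22 regions were picked by their NanogN70 peaks on days 10 and 12, higher scores with NanogN70 on these days follow in part from the choice, and no comparison of the paths is drawn from them. The NanogN70 day 12 library also had the higher median pileup at shared regions (41 against 24 tags). The difference in the number of members with a late region, 11 against 3, came mainly from day 10, since without the need for a day 10 peak it was 15 against 13, with backgrounds of 16.3% and 13.9%. Under that looser definition the members with NanogN70 were at 45.5%, and with Nanog at 39.4%.

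The strongest promoter peak of day 12 was looked up in the same way. With NanogN70 its summit lay outside every peak of MEFs and ESCs in 5 of the 30 members with a promoter peak (Neurod4, Pax3, Pax6, Pax7 and Nkx2-2), against 1.93% of all genes with one. With Nanog this was so in 2 of 28 (Neurod4 and Nkx2-2), against 1.79%.

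Sequence matches were counted as plain letters on both strands. In the promoters, from 250 bases before to 50 bases after the 5' end of the gene, the hexamer ACAATG occurred in 6 of the 33 members (18.2%, all genes 10.7%) and ACAAAG, its close relative among SOX-type sites, in 5 (15.2%, all genes 17.8%). The OCT-type octamer ATGCAAAT was found in 1 (Neurog1; all genes 1.57%), TAATGG, a NANOG-type core, in 2 (all genes 6.68%) and the E-box CAGCTG, read by bHLH factors, in 4 (12.1%, all genes 15.6%). Median GC content was 62.3% in members and 55% in all promoters. Around the summits of the late regions the picture differed. Within 75 bases of the summit either SOX-type hexamer occurred in 12 of the 22 late regions near members (54.5%), in 37.5% of 3833 late regions of the NanogN70 path that could be read and in 20.9% of 54237 peaks of that day 12 library. ACAATG was in 8 of the 22 (36.4%, late regions 17.7%), ACAAAG in 4 (18.2%, late regions 23.9%) and TAATGG in 3 (13.6%, late regions 9.78%). Several of the 22 share a gene, and these differences were not tested. ATGCAAAT was in none of the 22 and in 2.48% of the late regions, and CAGCTG in 1 and in 22.8%. A match is not a bound site.

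Other neural regulators were counted in the same way. Of 26 other neural transcription factors, 19 had a promoter peak in MEFs (73.1%, against 70.3% of all genes) and 24 in each ESC library (92.3%, against 71.1% to 72.8%). With Nanog 10 had one on day 0 (38.5%, against 61.1%) and 21 on day 12 (80.8%, against 63.6%). With NanogN70 there were 16 on day 0 (61.5%, against 65.5%) and 24 on day 12 (92.3%, against 65.9%). On day 0 these genes were thus well below the share of all genes with Nanog and near it with NanogN70, where the members were at 51.5%. Of the 26, 14 had a peak on more days with NanogN70 (53.8%, against 11.8%) and 2 on fewer (7.69%, against 6.55%). The largest differences were at Gsx2 (8 days against 3), Tlx3 (8 against 4), Barhl1 (6 against 2) and Rax (4 against 1), and in the other direction at Lmx1a (3 against 7). A late region was near 10 of the 26 in the NanogN70 path (38.5%, against 8.31%) and near 2 in the Nanog path (7.69%, against 5.16%). Genes for products of mature neurons and glia were counted as well. Of 20 such genes, 16 had a promoter peak in MEFs (80.0%, against 70.3% of all genes). With Nanog 11 and 17 had one on days 0 and 12 (55% and 85%, against 61.1% and 63.6% of all genes), and with NanogN70 14 and 17 (70.0% and 85%, against 65.5% and 65.9%). Of the 20, 6 had a peak on more days with NanogN70 and 1 on fewer. A late region was near 6 of these 20 genes with NanogN70 and near 2 with Nanog, so such regions were not limited to genes for transcription factors. On day 12, 5 fibroblast and 4 pluripotency markers of 10 each had a promoter peak with Nanog, and 8 and 9 with NanogN70. ESCs had 8 and 10 and MEFs 10 and 5, so a fibroblast count of 8 does not separate the NanogN70 path from ESCs. Their part in the counts of neural factors was not tested.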

How the data were processed

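ATAC-seq was analysed in 20 libraries, grouped by their titles. The authors trimmed reads with Trim Galore 0.6.4, aligned them with Bowtie2 2.4.5 to mm10, removed repetitive, mitochondrial and low-quality reads with SAMtools 1.16.1, and called peaks in each library with MACS 1.4.2, keeping duplicates and naming no input control. The authors deposited for each peak a score and for each summit its coverage in tags, a signal that is not scaled to depth. The number of cells per library differs between the sources. The depth is unknown because no source used here gives read numbers, and a gene without a peak may be accessible below detection.

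The coordinates are on mm10 (GRCm38), and on 21 of 21 chromosomes all peaks lay inside the reference. The 14 other sequence names held 525 peaks. These stayed in the totals of peaks and regions and in the cut to equal numbers of peaks, but no gene was looked up there. Start sites were those of GENCODE M21. CpG-rich promoters had a ratio of observed to expected CpG of at least 0.6 and at least 55% GC. Peak lookup (Python 3.11.15, pandas 2.3.3) was tested on simulated peaks. Members and lists were chosen with earlier results of these data known, and no p-value was computed. Every member was placed in a class by its peaks. Values were given in full for Olig3, Foxb1, members differing by at least 3 days between paths, and members with a peak in MEFs and none on day 12. Other genes were described after their values were seen. The alternatives were a score of at least 100, a 1 kb window, the summit in the window, the 5' end alone, equal numbers of peaks, and leaving out days or ESC replicates.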

Additional observations from a re-analysis of the deposited data

How the results depend on the processing

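With each library cut to its 44126 best peaks, 11 members had a promoter peak in MEFs (26 in the report, background 59.8%). In at least 2 ESC libraries 20 had one (31, background 63.8%). On day 0 there were 9 with NanogN70 (17) and 8 with Nanog (13), each beside a background of 56.0%. At that setting 8 members had fewer days with NanogN70 (5) and 14 had more (15). Late regions were then near 19 members with NanogN70 (11; background 15.9%) and 7 with Nanog (3; background 11.3%). At a score of at least 100 there were 11 members on day 0 with NanogN70 (17) and 5 with Nanog (13), for which no share of all genes is given. Late regions at that score were near 14 members with NanogN70 (background 5.95%) and 1 with Nanog (background 2.08%). Members with fewer days numbered 3 without day 3 (background 6.81%). Without a peak needed on day 10, late regions were near 15 members with NanogN70 (background 16.3%) and 13 with Nanog (background 13.9%). With the same window around every 5' end they were near 9 (background 2.41%) and 1 (background 1.14%). The day 0 and late region alternatives were chosen after the data were examined. Members with more days with NanogN70 numbered 13 to 18 under all alternatives (15). Without 1 ESC replicate, 29 to 30 members had a peak in both remaining ESC libraries. Each day and path has 1 library, of unknown depth, and the paths are compared day by day without a test.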
